A study of Homo sapiens with 24 samples.

Results

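Lysosomes are the acidic compartments in which hydrolases break down proteins, lipids, glycans and glycogen, and their membrane carries the proton pump and the transporters that keep them working. TFEB and TFE3 are transcription factors that are held in the cytoplasm by mTORC1 when nutrients are plentiful. The MiT/TFE family to which they belong (MITF, TFEB, TFE3 and TFEC) binds short E-box sequences, known as the CLEAR element and the M-box, in front of many lysosomal genes. GPNMB, a membrane glycoprotein of lysosomes and melanosomes that is found in pigment cells, macrophages and some breast cancers, is a known target of this family. The genes described here were 38 members listed by symbol: GPNMB, 3 MiT/TFE factors, 7 lysosomal membrane proteins, 12 acid hydrolases, 7 cathepsins, 3 lumenal proteins that are no enzymes, and 5 subunits or accessory proteins of the V-ATPase proton pump. All 38 were found among the 18889 genes of the deposited table. The set was chosen by a measured value, the rise of GPNMB with glucose in each line, so the glucose change of GPNMB is given as a description with no test, and the counts of calls with glucose below are over the other 37 members.

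The 24 samples were cultures of 3 human lines of estrogen receptor-positive breast cancer, HCC1500, MDA-MB-175 and ZR-75-30, with 4 cultures of each line in low glucose (LG, 5 mM) and 4 in high glucose (HG, 25 mM) for 48 hours. Cells were adapted to low glucose medium first, and during the exposure both groups were kept without serum. No osmotic control with mannitol is named in the labels of these cultures, so glucose and osmolarity cannot be told apart. Each line is a single established line, and nothing in the labels says whether the 4 cultures of a group were started independently, so the p-values measure the spread between these cultures, which may be technical.

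The values are normalized reads: whole reads divided by 1 factor per sample, between 9140024 and 17998819 recovered reads in a culture, with 1 read worth 0.3176 to 0.7635. A member counts as changed ("called") at a Benjamini-Hochberg adjusted p under 0.05 over all genes tested with limma on log2(value + 1), fitted within a line on its 8 cultures, so fold changes of weakly expressed genes are understated. TXNIP, a gene whose transcription follows glucose uptake, was higher in all HG than in all LG cultures of each line. The luminal markers EPCAM, KRT8, KRT18, KRT19, ESR1, GATA3 and FOXA1 were at 255 or more in every culture. Their summed values with CDH1 did not overlap in ZR-75-30, at 49036 to 53679 in LG and 34942 to 40806 in HG, where KRT19 went from 9252 to 10582 down to 5098 to 6503 and KRT8, KRT18, GATA3 and FOXA1 were also lower in all HG cultures. EPCAM went the other way in that line, at 1252 to 1377 in LG and 1501 to 1551 in HG. ESR1 overlapped there, at 598 to 643 in LG and 533 to 604 in HG. CDH1 (E-cadherin) was at 49.0 to 62.0 in ZR-75-30 at both glucose levels. In the other lines the sums overlapped, but single markers did not. In MDA-MB-175 ESR1 was at 330 to 338 in LG and 255 to 263 in HG. FOXA1 and CDH1 were also lower there in all HG cultures, and KRT18 was higher. In HCC1500 CDH1 was at 8166 to 8263 in LG and 5447 to 6837 in HG. GATA3 was also lower there in all HG cultures, and EPCAM and KRT8 were higher. Of 12 macrophage markers, 4 were in the table, and their summed values were 9.11 to 19.6 in MDA-MB-175, 0 to 3.65 in ZR-75-30, and 2.68 to 6.03 at low against 10.6 to 27.5 at high glucose in HCC1500. CSF1R and MSR1 did not exceed 2.15 in any culture, and the difference in HCC1500 came from CD14 (0.431 to 3.04 at low and 8.26 to 26.7 at high glucose). Its part in the HCC1500 results was not tested. Of 10 pigment cell genes, 4 were in the table, and GPR143 was the highest of them at 14.4 to 77.0 while PMEL lay between 2.85 and 28.1.

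HCC1500 HG replicate 3 (HG3) stood apart from its group. Its mean correlation with the other 3 HG cultures was 0.944, against at least 0.976 for those 3, and 23.91% of genes were over 1 log2 unit away from the group, against at most 1.74% in any other culture of the series. The deposited values of HG3 also summed to 7319781, against 5559394 to 5604083 in the other 3 HG cultures. Among the 38 members HG3 was above the other 3 HG cultures in 29, below them in 6 and within their range in 3, with a median difference of 0.78 log2 and a range from -0.58 for CD68 to 1.33 for TFEB. The same counts were not made over all genes, so whether they are particular to the members was not tested. Across the 34 members with a mean of at least 10 in these cultures, the difference was larger for shorter transcripts (Spearman's rho of -0.71 with transcript length, a description over genes of 1 library). The 9 members that stood more than 1 log2 unit above had transcripts of 821 to 2333 bases, and the 5 that stood below had 2496 to 6535 bases. HCC1500 results are therefore given with and without HG3. Total recovered reads in HCC1500 did not overlap either, at 13190982 to 17998819 in LG and 9423472 to 12140912 in HG, and the part of depth in the HCC1500 results was not tested.

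**Figure D1:**
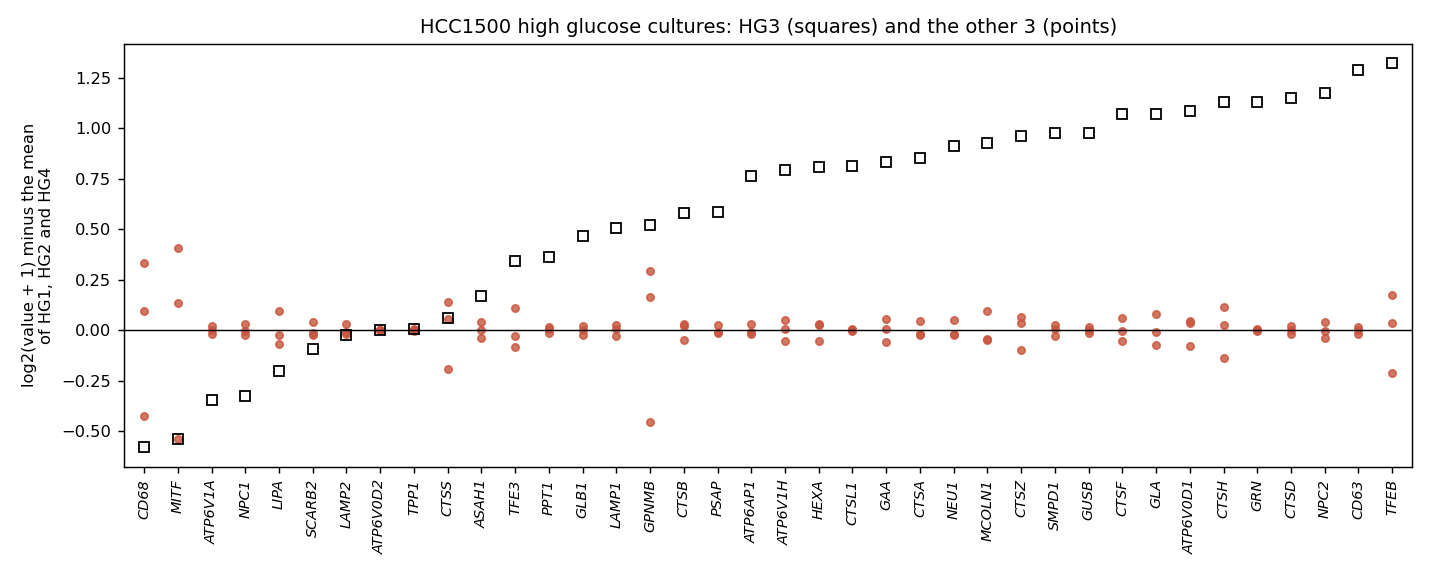
Difference of each HCC1500 high glucose culture from the mean of HG1, HG2 and HG4 on the log2(value + 1) scale, for the 38 members in order of the difference of HG3. The squares (HG3) lie above all 3 points in 29 members, up to 1.33 for TFEB, and below them in 6.

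The promoters of several members hold the short sequences that MiT/TFE factors bind, and a few are shown: those of GPNMB and of 3 members called higher in each line (NEU1, MCOLN1 and TPP1), and those of LAMP1 and GAA, whose changes were small or differed in sign between lines, for contrast. The 250 bases before to 50 bases after the start of the gene were taken from RefSeq for 29 of the 38 members (GRCh38.p14) and searched on both strands for TCACGTGA, the core of the CLEAR element, for TCATGTGA, an M-box variant, and for the E-box CACGTG, which lies inside the first. TCACGTGA was found in 5 of the 29 promoters (17.2%: MCOLN1, LAMP1, CTSA, GAA and ATP6V0D1), in 13 of 89 promoters of other lysosomal genes (14.6%) and in 1.68% of 12981 promoters of genes in the table. TCATGTGA was found in another 5 (17.2%: GPNMB, TPP1, GRN, CD63 and PPT1), in 3.37% of the other lysosomal genes and in 0.847% of the promoters of genes in the table. CACGTG was found in 9 of 29 (31%), against 25.8% and 9.66%. The window of CTSL1, which was also called higher in each line, holds none of the 3. No match is given for ASAH1, the remaining member called higher in each line, which may be among the members with no window. A stretch of 60 bases that holds the match follows for 6 members, 5′ to 3′ on the strand of the gene, with the match in capitals. The stretches do not hold every match. The GAA window holds a further CLEAR core at position -77 from the start. The LAMP1 window holds a further CLEAR core at -2, and further E-boxes at -192, -176, -159 and -142. A match is a description of the letters, not a bound site.
GPNMB (chr7:23246686-23246745, + strand, M-box variant on the other strand, 63 bases before the start): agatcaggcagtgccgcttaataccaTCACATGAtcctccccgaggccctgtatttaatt
TPP1 (chr11:6619423-6619482, - strand, M-box variant on either strand): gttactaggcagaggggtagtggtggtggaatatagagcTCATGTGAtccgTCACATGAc
MCOLN1 (chr19:7522564-7522623, + strand, CLEAR core at 2 places): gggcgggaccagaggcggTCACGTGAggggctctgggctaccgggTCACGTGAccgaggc
NEU1 (chr6:31862914-31862973, - strand, E-box): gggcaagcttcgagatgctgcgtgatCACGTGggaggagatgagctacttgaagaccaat
LAMP1 (chr13:113297179-113297238, + strand, CLEAR core): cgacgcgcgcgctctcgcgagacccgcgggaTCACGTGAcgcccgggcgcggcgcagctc
GAA (chr17:80101521-80101580, + strand, CLEAR core): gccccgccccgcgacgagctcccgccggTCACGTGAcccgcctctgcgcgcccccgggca

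GPNMB (ENSG00000136235, chromosome 7, 23275586 to 23314727 in GRCh37) was low in low glucose and higher in every HG culture of every line, the pattern for which the set was chosen. In MDA-MB-175 the 4 LG cultures held 15.2, 16.1, 11.4 and 16.8 normalized reads and the 4 HG cultures 193, 199, 199 and 223. In ZR-75-30 the LG cultures held 38.8, 40.4, 34.7 and 35.9 and the HG cultures 254, 271, 255 and 266. In HCC1500 the LG cultures were at 1.14, 0.635, 1.53 and 0.861 and the HG cultures at 21.8, 23.9, 28.2 (HG3) and 13.8. The groups did not overlap in any line. The ratio of the group means was 13.7 in MDA-MB-175 and 6.99 in ZR-75-30, with log2 differences of 3.70 ± 0.12 and 2.77 ± 0.08 (SE). The HCC1500 LG values rest on 2 to 4 reads a culture, 11 reads in all against 153 in HG, and the ratio from pooled reads was 20.6 with a 95% interval of 11.2 to 42.2 (exact binomial, counting error only). The log2 difference in HCC1500 was 3.47 ± 0.26, and 3.34 ± 0.31 without HG3. At high glucose GPNMB in HCC1500 lay between 13.8 and 28.2, near the 11.4 to 16.8 of MDA-MB-175 at low glucose, while the other lines were at 193 or more.

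MITF, the family member best known from melanocytes, rose in both lines that expressed it. In MDA-MB-175 the LG cultures held 178, 174, 182 and 182 and the HG cultures 387, 379, 380 and 376, a log2 change of 1.08 ± 0.05 (limma, adjusted p = 3.1e-10). In ZR-75-30 the LG cultures held 161, 164, 146 and 165 and the HG cultures 298, 325, 310 and 314, a log2 change of 0.97 ± 0.06 (limma, adjusted p = 2.9e-10). HCC1500 had next to no MITF: 6 reads over its 4 LG cultures and 3 over its 4 HG cultures, with 0 to 4 reads in a culture, so the gene was not tested there and no fold is given. Whether MITF has a part in the GPNMB values was not tested.

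TFEB and TFE3, the family members that most tissues express, moved little. TFEB in ZR-75-30 was at 76.5, 75.6, 71.2 and 53.4 in LG and 82.8, 93.8, 88.4 and 79.5 in HG, a log2 change of 0.32 ± 0.12 (limma, adjusted p = 0.0312). That call was lost without LG replicate 4, HG replicate 2 or HG replicate 3 (adjusted p = 0.0695 to 0.112). In MDA-MB-175 TFEB had overlapping groups with means of 13.8 and 17.5, and in HCC1500 the HG mean of 68.6 ± 38.3 (SD, n = 4) rested on HG3 at 125, with 49.7 ± 6.75 (n = 3) without it against 47.9 ± 3.56 in LG. TFE3 lay between 313 and 502 in every culture, and its log2 change was 0.22 ± 0.11 in HCC1500, 0.11 ± 0.05 in MDA-MB-175 and 0.04 ± 0.07 in ZR-75-30, none of them called. Without HG3 the HCC1500 change of TFE3 was 0.13 ± 0.05 and was called (limma, adjusted p = 0.0383).

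**Figure D2:**
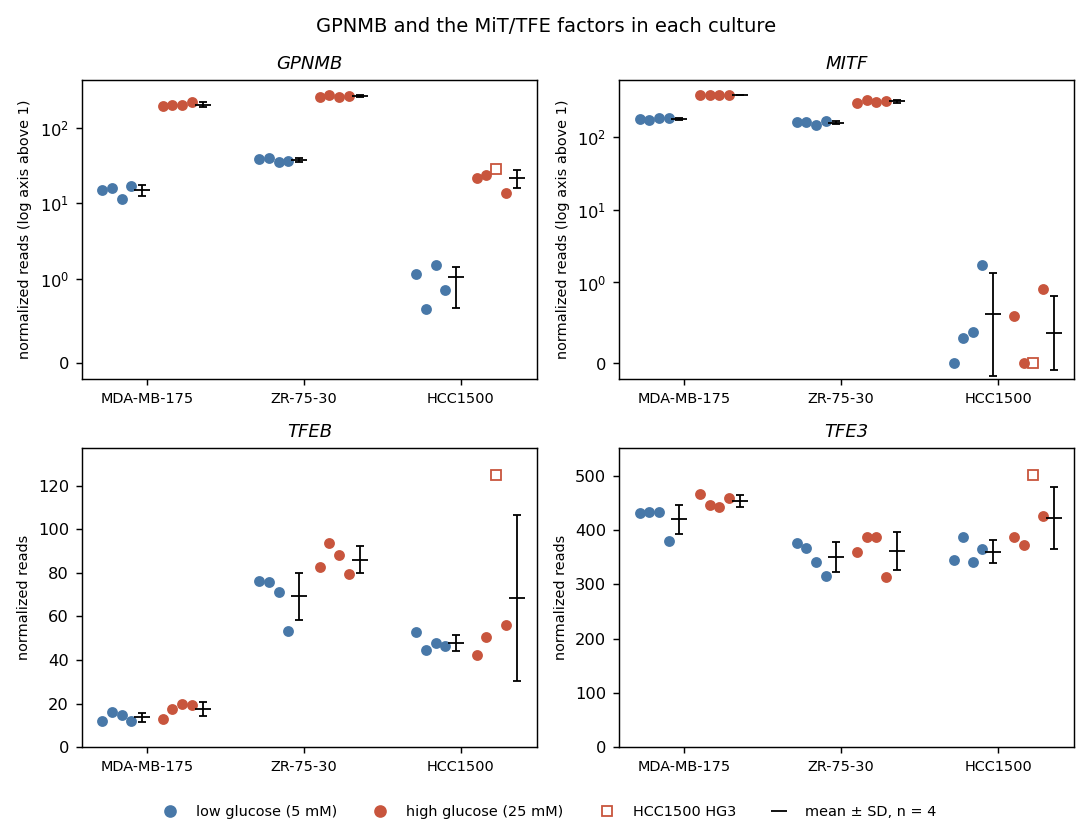
Normalized reads of GPNMB, MITF, TFEB and TFE3 in each of the 24 cultures, with the mean and SD of each group (n = 4). The GPNMB and MITF axes are logarithmic above 1. GPNMB is higher in all HG than in all LG cultures of each line, MITF is near 0 in HCC1500, and TFEB and TFE3 groups lie close together apart from HCC1500 HG3.

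In MDA-MB-175, 17 of the 37 tested members rose with glucose and none fell at this threshold. Called genes were 45.9% of the members against 25.7% of all 17029 genes tested, and rises were 11.9% and falls 13.7% of all genes. The median log2 change of the members was 0.14 against -0.02 for all genes. Rises were found for 5 of 7 membrane proteins, 4 of 7 cathepsins, 4 of 12 acid hydrolases, all 3 lumenal proteins, 1 of 3 MiT/TFE factors and 0 of 5 V-ATPase proteins. All HG cultures lay above all LG cultures for 16 members and below them for none, against 12.7% and 13.9% of all genes. On a CPM scale 16 rose and 2 fell, LAMP1 (log2 change -0.13, limma, adjusted p = 0.011) and GUSB (-0.14, adjusted p = 0.023). On that scale 31.6% of all genes were called, 39.7% of their calls were higher, and the median of all genes was -0.04.

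In ZR-75-30, 28 of the 36 tested members rose and 2 fell, 83.3% called against 46% of 15834 genes (23.4% higher and 22.7% lower). Their median log2 change was 0.45 against 0.01 for all genes. All 7 membrane proteins, all 7 cathepsins and all 3 lumenal proteins rose, together with 7 of 12 hydrolases and 2 of 4 tested V-ATPase proteins. The falls were LIPA and GLA. The groups did not overlap in 29 members with HG above LG and in 2 with HG below, against 20.9% and 21.1% of all genes. The summed luminal markers were lower in all HG than in all LG cultures of ZR-75-30 (34942 to 40806 against 49036 to 53679), while EPCAM alone was higher. The part of these markers in the counts was not tested.

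In HCC1500 with all 8 cultures, 8 of the 35 tested members rose and 1 fell, 25.7% called against 20.5% of 16361 genes (7.46% higher and 13% lower). Rescaled to CPM the split was 11 higher to 4 lower, where 26.5% of all genes were called and 29.8% of their calls were higher. By median of ratios it was 16 to 2, where 21.4% of all genes were called and 48.9% of their calls were higher. The groups did not overlap in the direction of a rise in 18 of 35 members, against 13.7% of all genes, and in the direction of a fall in 2 (against 18.7%). Without HG3, 19 rose and 9 fell, 80.0% against 58.5% of 16235 genes (20.9% higher and 37.7% lower). Without HG3 the median of all genes was itself shifted, to -0.12 as deposited and to -0.01 when rescaled by median of ratios. The members' median lay 0.26 log2 above that of all genes as deposited and 0.27 above it after rescaling. Under median of ratios 23 members rose and 7 fell without HG3 (56.7% of all genes called, 50.5% of their calls higher), and CTSZ and SCARB2 were no longer called lower.

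**Figure D3:**
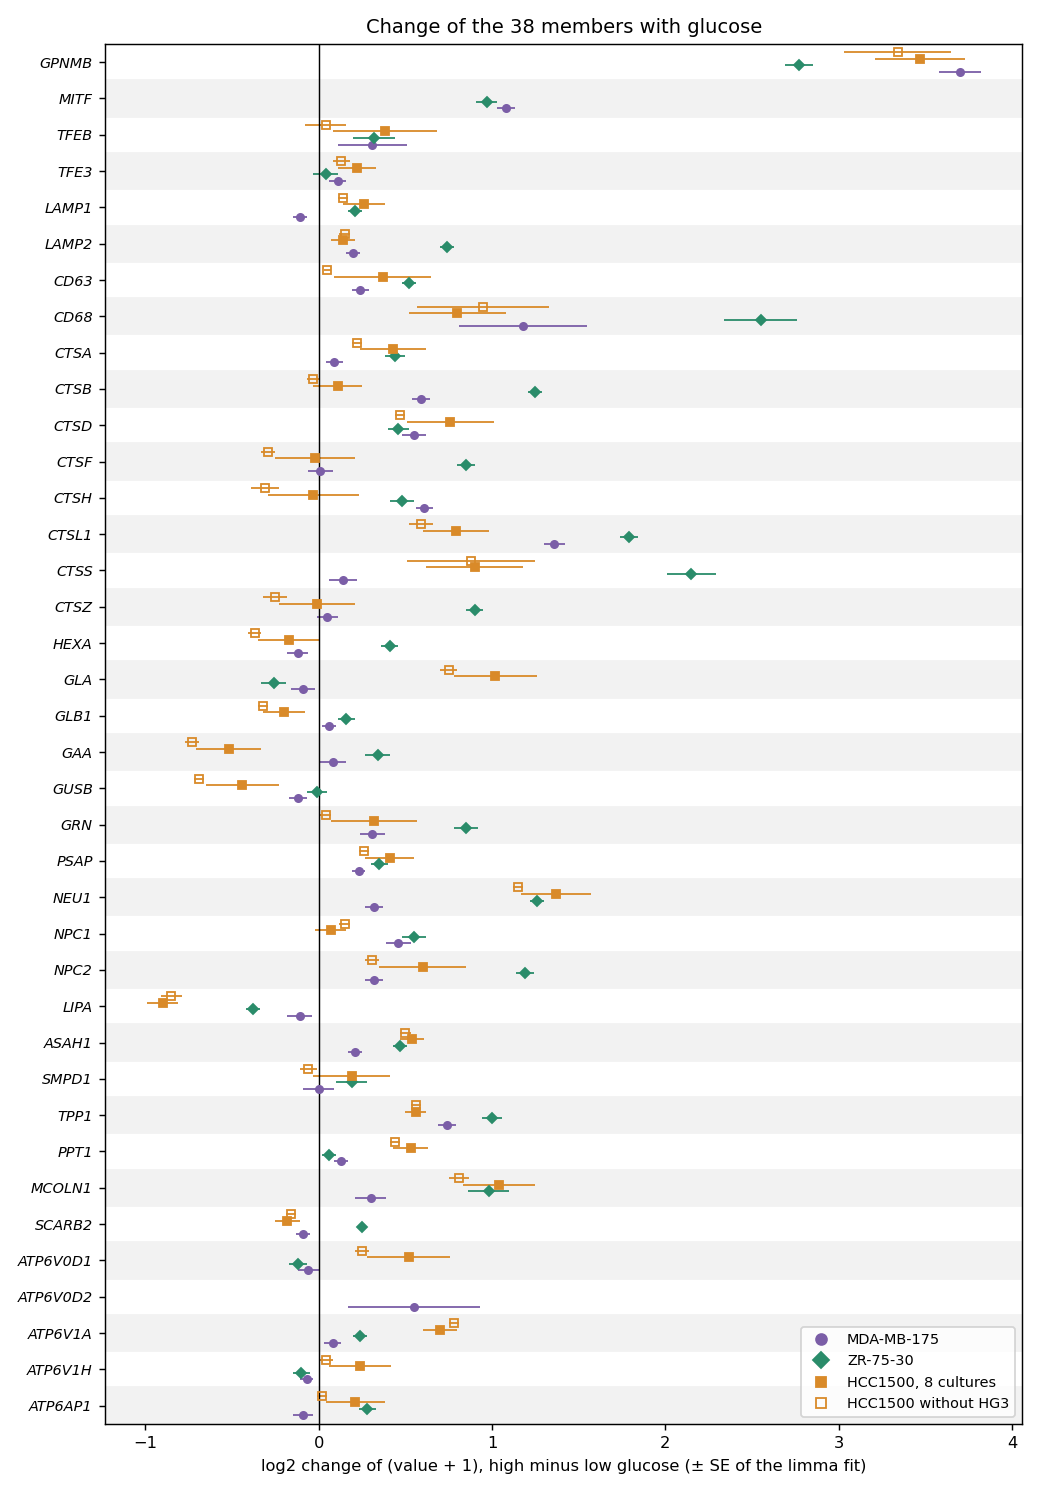
Log2 change of each member between high and low glucose, with the SE of the limma fit, for MDA-MB-175 (circles), ZR-75-30 (diamonds), HCC1500 with 8 cultures (filled squares) and HCC1500 without HG3 (open squares). Most ZR-75-30 points lie to the right of 0. GPNMB lies between 2.77 and 3.70 in every line, and LIPA lies left of 0 in every line.

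Called higher in each line were 5 of the 35 members tested in all 3, NEU1, MCOLN1, CTSL1, TPP1 and ASAH1, and none was called lower in each. MITF and ATP6V0D2 were not tested in HCC1500. Of 14636 genes tested in all 3 lines, 1.81% were called higher and 3.32% lower in each. Without HG3 there were 11 such members, the same 5 with LAMP2, CD68, CTSD, PSAP, NPC1 and NPC2, and none lower. The shares of 14572 genes were 3.73% higher and 6.74% lower. The HCC1500 call of CD68 without HG3 (limma, adjusted p = 0.0383) rests on 2 to 3 reads a culture in LG and 3, 6 and 8 in HG.

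NEU1, the sialidase that trims sialic acid from glycoproteins, rose least in MDA-MB-175. There the LG cultures held 541, 536, 541 and 514 and the HG cultures 713, 644, 613 and 698, a log2 change of 0.32 ± 0.05 (limma, adjusted p = 2.3e-04). In ZR-75-30 it went from 920, 959, 911 and 857 to 2266, 2139, 2271 and 2093, a log2 change of 1.26 ± 0.04. In HCC1500 it went from 1137, 1232, 1206 and 1182 to 2718, 2592, 4950 (HG3) and 2583. Every HG culture was above every LG culture in each line, and the HCC1500 log2 change was 1.37 ± 0.20 with HG3 and 1.15 ± 0.03 without it. The size of the NEU1 response differed between lines (limma F test of the interaction, adjusted p = 1.9e-04).

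MCOLN1, the calcium channel of the lysosomal membrane that releases calcium to activate TFEB, was called in each line, most weakly in MDA-MB-175. Its values in MDA-MB-175 were 105, 91.8, 109 and 85.5 in LG and 114, 133, 117 and 115 in HG, a log2 change of 0.30 ± 0.09 (limma, adjusted p = 0.0282) that was not called without LG replicate 2, LG replicate 4, HG replicate 2 or HG replicate 3 (adjusted p = 0.0535 to 0.101). In ZR-75-30 MCOLN1 went from 38.8, 36.4, 41.0 and 32.1 to 84.4, 74.9, 68.4 and 69.2, a log2 change of 0.98 ± 0.12. In HCC1500 it went from 228, 262, 220 and 254 to 408, 409, 803 (HG3) and 451, a log2 change of 1.04 ± 0.21, or 0.81 ± 0.06 without HG3. Of its exon bases in the annotation, 175 are shared with another gene on the same strand.

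CTSL1 (cathepsin L, a cysteine protease) had the largest rise among the tested members in MDA-MB-175. The LG cultures held 276, 297, 297 and 278 and the HG cultures 790, 703, 682 and 776, a log2 change of 1.36 ± 0.06 (limma, adjusted p = 6.3e-11). In ZR-75-30 CTSL1 went from 178, 186, 172 and 179 to 648, 644, 626 and 566, a log2 change of 1.79 ± 0.05. In HCC1500 it went from 138, 143, 136 and 116 to 200, 201, 352 (HG3) and 199, a log2 change of 0.79 ± 0.19, or 0.59 ± 0.07 without HG3. The HCC1500 call from all cultures was lost without LG replicate 1, 3 or 4 (limma, adjusted p = 0.0549 to 0.0677), though no HG value fell within the LG range.

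TPP1, a tripeptidyl peptidase whose loss causes a childhood lipofuscinosis, was at the same level in HG3 as in the other HG cultures of HCC1500. In that line the LG cultures held 1252, 1283, 1211 and 1278 and the HG cultures 1848, 1853, 1853 (HG3) and 1839, a log2 change of 0.56 ± 0.06 (limma, adjusted p = 6.5e-04). In MDA-MB-175 TPP1 went from 536, 517, 518 and 474 to 858, 841, 862 and 852, a log2 change of 0.74 ± 0.05 (limma, adjusted p = 7.7e-09). In ZR-75-30 it went from 328, 283, 356 and 317 to 673, 661, 632 and 607, a log2 change of 1.0 ± 0.06 (limma, adjusted p = 2.1e-10). The groups did not overlap in any line. Of the exon bases of TPP1 in the annotation, 756 are shared on the same strand. ASAH1, the acid ceramidase, had smaller log2 changes: 0.54 ± 0.07 in HCC1500, 0.47 ± 0.04 in ZR-75-30 and 0.21 ± 0.04 in MDA-MB-175. Its HCC1500 mean went from 1342 ± 22.5 to 1956 ± 125 (SD, n = 4). The ZR-75-30 mean of ASAH1 went from 789 ± 13.2 to 1092 ± 51.7 and the MDA-MB-175 mean from 2626 ± 77.3 to 3036 ± 34.1.

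**Figure D4:**
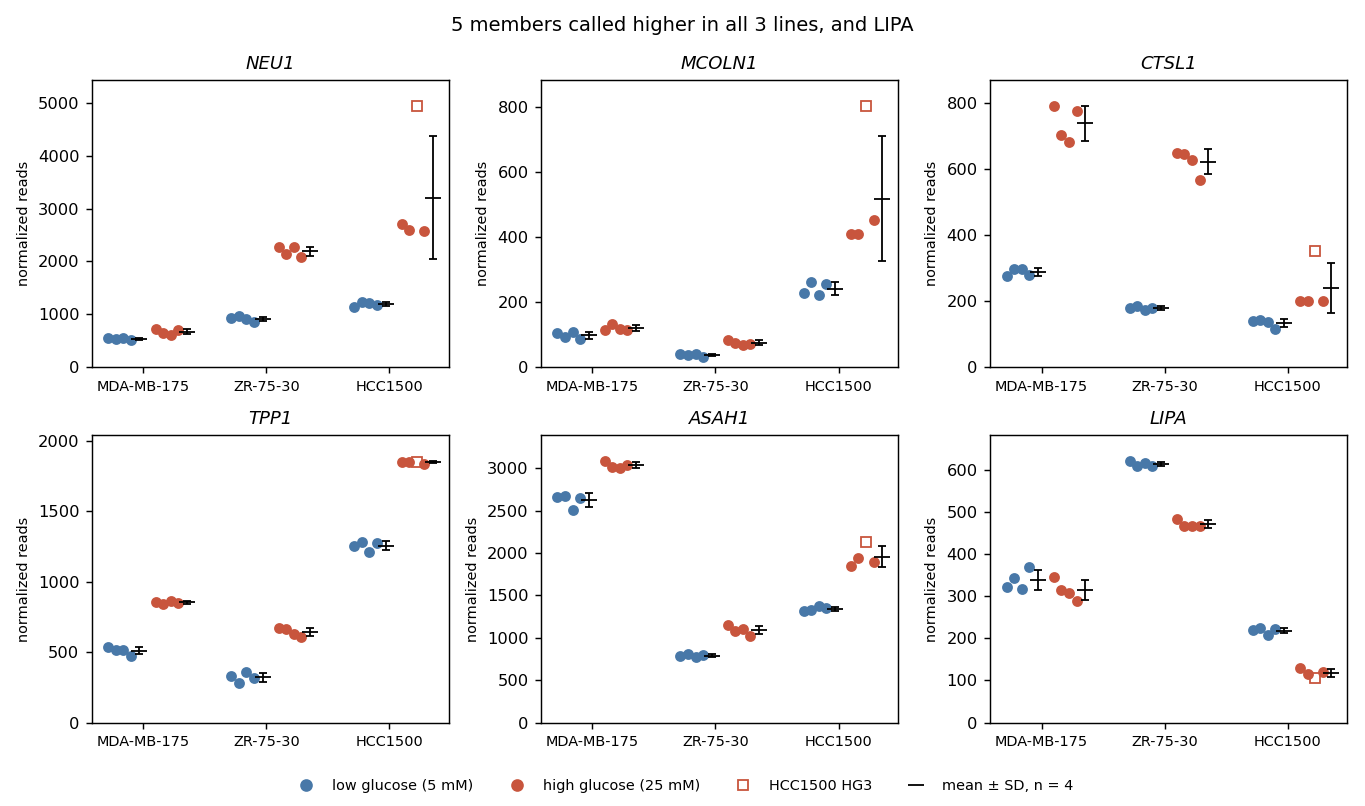
Normalized reads of the 5 members called higher in each line and of LIPA in each of the 24 cultures, with the mean and SD of each group (n = 4). All HG cultures are above all LG cultures of the same line for the 5 members, with HCC1500 HG3 at 4950 for NEU1 and 803 for MCOLN1, and LIPA in HCC1500 lies between 105 and 129 in HG against 209 to 225 in LG.

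LIPA, the acid lipase that splits cholesteryl esters and triglycerides, went the other way. In HCC1500 it fell from 219, 225, 209 and 222 to 129, 115, 105 (HG3) and 119, a log2 change of -0.90 ± 0.09 (limma, adjusted p = 3.7e-04). In ZR-75-30 it fell from 621, 610, 618 and 610 to 485, 468, 467 and 468, a log2 change of -0.38 ± 0.04 (limma, adjusted p = 3.3e-07). In MDA-MB-175 the groups overlapped, with means of 338 ± 24.2 and 314 ± 23.5. The response differed between lines (limma F test, adjusted p = 2.5e-06).

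GLA, the alpha-galactosidase that cleaves globotriaosylceramide, was the member called in opposite directions with all cultures used. In HCC1500 it rose from 183, 200, 199 and 195 to 326, 347, 690 (HG3) and 312, a log2 change of 1.02 ± 0.24 (limma, adjusted p = 0.0166), or 0.75 ± 0.05 without HG3. The call was lost without LG replicate 1 (adjusted p = 0.0532). In ZR-75-30 GLA fell from 175, 193, 189 and 170 to 157, 154, 143 and 154, a log2 change of -0.26 ± 0.07 (limma, adjusted p = 0.0043). In MDA-MB-175 the groups overlapped, and the difference between lines passed the F test (adjusted p = 1.5e-04).

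Other members, named here to fill in each role after their values were seen, showed how ZR-75-30 and HCC1500 parted. Cathepsin B (CTSB), a cysteine protease, rose in ZR-75-30 from 736 ± 26.5 to 1754 ± 104 and in MDA-MB-175 from 1878 ± 112 to 2817 ± 90.5, with log2 changes of 1.25 ± 0.04 and 0.59 ± 0.05. In HCC1500 its means were 840 ± 45.6 and 922 ± 204, with overlapping groups and no call with or without HG3. Cathepsins F, H and Z rose in ZR-75-30 (log2 changes of 0.85, 0.48 and 0.90) and were called lower in HCC1500 without HG3 (-0.29, -0.31 and -0.25), while with HG3 none of them was called there. Cathepsin D (CTSD), the main aspartic protease, rose in MDA-MB-175 from 10324 ± 1266 to 14996 ± 610 and in ZR-75-30 from 7668 ± 458 to 10582 ± 1115. In HCC1500 CTSD had a log2 change of 0.76 ± 0.25 that was not called as deposited but was on CPM, by median of ratios and with edgeR, and of 0.47 ± 0.03 without HG3 that was.

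Some members were measured from few reads. CTSS (cathepsin S), best known from antigen-presenting cells, rose in ZR-75-30 from 23.8, 20.5, 22.8 and 17.6 to 96.3, 85.1, 106 and 100, a log2 change of 2.15 ± 0.14 (limma, adjusted p = 4e-10). In MDA-MB-175 its means were 97.1 ± 3.88 and 107 ± 6.27 and the change was not called, and the response differed between lines (limma F test, adjusted p = 4.8e-06). In HCC1500 CTSS rested on 16 reads in LG and 26 in HG. CD68, a heavily glycosylated membrane protein of late endosomes, rose in ZR-75-30 from 5.66 ± 1.06 to 37.7 ± 4.36, a log2 change of 2.55 ± 0.21 (limma, adjusted p = 1.3e-08). In MDA-MB-175 it rested on 20 reads in LG and 57 in HG, and its call (adjusted p = 0.0288) was lost without LG replicate 2 or HG replicate 1, 2 or 4 (adjusted p = 0.0793 to 0.086). The annotation places 1765 exon bases of CD68 under another gene on the same strand, so these reads cannot be told apart.

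Among the other hydrolases GAA (acid alpha-glucosidase, which digests glycogen), GUSB (beta-glucuronidase), GLB1 (beta-galactosidase) and HEXA (a beta-hexosaminidase subunit) were lower in HCC1500 without HG3. The log2 changes were -0.73 ± 0.04, -0.69 ± 0.03, -0.32 ± 0.03 and -0.37 ± 0.04. HG3 itself held 942, 1517, 802 and 974 of them, above or within the LG values, and with it none was called as deposited. With all cultures GAA was called lower on CPM, by median of ratios and with edgeR (-0.60, -0.47 and -0.47), and GUSB and GLB1 on CPM (-0.52 and -0.28). GAA, GLB1 and HEXA rose in ZR-75-30 by 0.34, 0.16 and 0.41 log2, and GUSB did not change beyond its spread (-0.01 ± 0.06). PPT1, a palmitoyl-protein thioesterase, rose in HCC1500 from 2611 ± 78.3 to 3785 ± 504 and without HG3 by 0.44 ± 0.03 log2. Cathepsin A (CTSA), a carboxypeptidase that protects NEU1 and GLB1, rose in ZR-75-30 from 382 ± 27.1 to 521 ± 40.6, and in HCC1500 its change was 0.43 ± 0.19 log2 with all cultures, called on CPM, by median of ratios and with edgeR but not as deposited, and 0.22 ± 0.03 without HG3, called. SMPD1, the acid sphingomyelinase, was called in no line.

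Of the lumenal proteins that are no enzymes, NPC2, which hands cholesterol to the membrane protein NPC1, rose in ZR-75-30 from 495 ± 17.0 to 1133 ± 80.5, a log2 change of 1.19 ± 0.05. In MDA-MB-175 NPC2 rose by 0.32 ± 0.05 log2, and in HCC1500 by 0.60 ± 0.25 (not called) or 0.31 ± 0.04 without HG3 (called). GRN (progranulin) rose in ZR-75-30 from 251 ± 18 to 453 ± 42.1 and in MDA-MB-175 from 868 ± 111 to 1067 ± 31.9. In HCC1500, HG3 was at 8452 against 3844 to 3873 in the other HG cultures and 3567 to 3957 in LG. PSAP, the saposin precursor, rose by 0.23 ± 0.04 log2 in MDA-MB-175 and 0.35 ± 0.05 in ZR-75-30, and in HCC1500 by 0.26 ± 0.03 without HG3.

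Membrane proteins rose by up to 0.74 ± 0.04 log2 for LAMP2, from 1113 ± 34.2 to 1854 ± 16 in ZR-75-30, leaving out MCOLN1 and CD68. LAMP1, the other main glycoprotein of the membrane, rose by 0.21 ± 0.04 in ZR-75-30 and had -0.11 ± 0.04 in MDA-MB-175 with no call. CD63 rose by 0.52 ± 0.04 in ZR-75-30 and 0.24 ± 0.05 in MDA-MB-175, and in HCC1500 its value of 6825 in HG3 stood against 2760 to 2825 in the other HG and 2690 to 2712 in the LG cultures. The cholesterol exporter NPC1 rose by 0.46 ± 0.07 in MDA-MB-175 and 0.55 ± 0.07 in ZR-75-30. SCARB2, the receptor that carries glucocerebrosidase to lysosomes, rose by 0.25 ± 0.03 in ZR-75-30 and lay lower in all 4 HG than in all 4 LG cultures of HCC1500 (1552 ± 59.3 against 1759 ± 19.6, log2 change -0.18 ± 0.07, not called with HG3).

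Of the V-ATPase proteins, ATP6V1A, the catalytic subunit, changed most in HCC1500. It went from 816, 849, 907 and 846 to 1450, 1494, 1155 (HG3) and 1469, a log2 change of 0.70 ± 0.10 (limma, adjusted p = 0.00182), where HG3 was the lowest HG culture. In ZR-75-30 ATP6V1A rose by 0.24 ± 0.04 and in MDA-MB-175 it had 0.08 ± 0.05 with no call. The accessory protein ATP6AP1 rose in ZR-75-30 by 0.28 ± 0.05 log2. ATP6V0D1, a subunit of the membrane sector, was called as deposited in HCC1500 without HG3 (0.25 ± 0.04). With HG3 it was called higher there by median of ratios and with edgeR, and in ZR-75-30 (-0.12 ± 0.05) it was called lower on CPM and with edgeR. ATP6V1H was called in no line as deposited, lower in ZR-75-30 on CPM (-0.14), and higher in HCC1500 without HG3 by median of ratios (0.16), and ATP6V0D2, a subunit typical of osteoclasts, was at 2.84 or less in every culture.

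The response was tested for a difference between the 3 lines in a fit of all 24 cultures. It differed for 24 of the 37 members (64.9%), against 29.3% of 18144 genes, and without HG3 for 30 (81.1%) against 48.6%. The difference for MITF (limma F test, adjusted p = 0.00485) rests on HCC1500, where the gene was at or near 0. TFEB, TFE3, CTSD, PSAP, SMPD1, ATP6V0D2 and ATP6V1H did not pass this test with or without HG3.

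Most members also differed between the lines at low glucose, as most genes did. The 37 members tested here include GPNMB and leave out ATP6V0D2, which was too low to be tested. GPNMB is counted as called in each comparison, though its low glucose values enter the rise by which the set was chosen. Between MDA-MB-175 and ZR-75-30, 34 of 37 members differed (91.9%, against 73.1% of 17739 genes), 22 higher and 12 lower in MDA-MB-175 (44.3% and 28.8% of all genes). Between MDA-MB-175 and HCC1500, 35 differed (94.6%, against 80.6%), 18 higher and 17 lower in MDA-MB-175 (38.4% and 42.2%). Between ZR-75-30 and HCC1500, 34 differed (91.9%, against 80.4%), 15 higher and 19 lower in ZR-75-30 (32.4% and 48%). HCC1500 was the highest line for 16 members, MDA-MB-175 for 14 and ZR-75-30 for 8. The median of all genes was shifted by 0.18 log2 between MDA-MB-175 and ZR-75-30 and by -0.25 between ZR-75-30 and HCC1500. On a CPM scale these shifts were 0.30 and -0.46, the splits were 26 to 9 and 11 to 23, and the directions of LAMP2, CTSH and ATP6V1A in the first comparison and of SCARB2 in the second changed sign.

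The 5 members with the widest range between lines were MITF, CTSS, GPNMB, GRN and MCOLN1. MITF was at 179 ± 3.80 in MDA-MB-175 and 159 ± 8.55 in ZR-75-30, which did not differ (log2 difference 0.17 ± 0.22, limma, adjusted p = 0.503), and at 0.606 ± 0.763 in HCC1500. GPNMB was highest in ZR-75-30 at 37.4 ± 2.59, followed by MDA-MB-175 at 14.9 ± 2.41 and HCC1500 at 1.04 ± 0.387. Its log2 difference of MDA-MB-175 from ZR-75-30 was -1.29 ± 0.19, given as a description. CTSS was at 97.1 ± 3.88 in MDA-MB-175, followed by 21.2 ± 2.78 in ZR-75-30 and 1.55 ± 0.794 in HCC1500. GRN had the order HCC1500 (3757 ± 185), MDA-MB-175 (868 ± 111) and ZR-75-30 (251 ± 18), and MCOLN1 the same order at 241 ± 20.6, 97.8 ± 11.1 and 37.1 ± 3.83. Leaving out GPNMB, each neighbouring pair in these orders differed in the limma fit apart from the MITF pair. TFEB was lowest in MDA-MB-175 at 13.8 ± 1.99, against 69.2 ± 10.7 in ZR-75-30 and 47.9 ± 3.56 in HCC1500.

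Per kb of transcript, CD63 (a tetraspanin of late endosomes) and CTSD were the most abundant members in MDA-MB-175, at 5243 and 5024 normalized reads per kb at low glucose. In ZR-75-30 CD63 and PSAP led at 4856 and 4153, and in HCC1500 CD63 at 2641 and GRN at 1764. Of the 3 MiT/TFE factors TFE3 was the most abundant per kb in each line, at 107 to 128. In MDA-MB-175 MITF followed at 37.3 and TFEB at 5.91, in ZR-75-30 MITF was at 33.1 and TFEB at 29.7, and in HCC1500 TFEB was at 20.5 and MITF at 0.126.

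**Figure D5:**
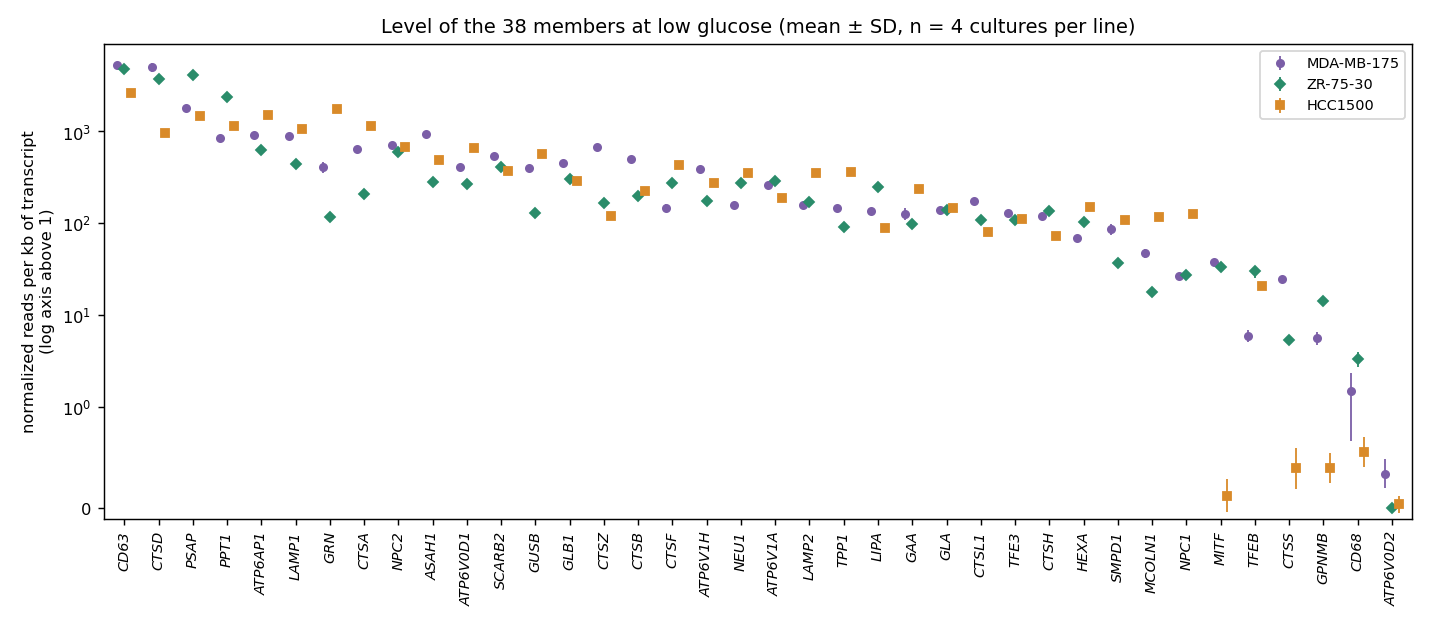
Normalized reads per kb of transcript at low glucose for the 38 members in each line (mean ± SD, n = 4 cultures), in order of the mean over the lines, on an axis that is logarithmic above 1. CD63 leads at 2641 to 5243 per kb, and MITF, CTSS and GPNMB are near 0 in HCC1500.

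The wider lysosomal gene set was read from 120 further genes in 5 lists. In MDA-MB-175, 33 of 120 rose and 15 fell (40.0% called, against the 25.7% of all genes), in ZR-75-30 68 of 117 tested rose and 12 fell (68.4% against 46%), and in HCC1500 16 of 114 rose and 12 fell (24.6% against 20.5%). Without HG3 the HCC1500 counts were 41 and 38 (69.3% against 58.5%). Of all genes, 11.9% rose and 13.7% fell in MDA-MB-175, and 23.4% and 22.7% in ZR-75-30. In HCC1500 7.46% of all genes rose and 13% fell, or 20.9% and 37.7% without HG3. Their median log2 changes were 0.04, 0.25 and 0.07, and -0.02 without HG3.

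Among 37 other hydrolases and lumenal proteins, 4 rose and 6 fell in MDA-MB-175, 23 rose and 3 fell in ZR-75-30, and 2 rose and 6 fell in HCC1500 (7 and 19 without HG3). In MDA-MB-175 10.8% rose and 16.2% fell and in HCC1500 22.9% were called, near the 25.7% and 20.5% of all genes called. The shares were 70.3% in ZR-75-30 (46% of all genes) and 74.3% in HCC1500 without HG3 (58.5%). IDS (iduronate sulfatase) rose most in MDA-MB-175, from 572 ± 7.54 to 986 ± 27.1, and ACP5 (tartrate-resistant acid phosphatase) in ZR-75-30, from 3.36 ± 1.39 to 24.6 ± 2.80. In HCC1500 SCPEP1 (a serine carboxypeptidase) rose most, by 0.51 ± 0.14 log2. NAAA, which hydrolyses N-acylethanolamines, fell most in MDA-MB-175 (-0.56 ± 0.18). ACP2, an acid phosphatase, fell most in ZR-75-30, by 0.55 on the log2 scale.

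Of 30 other membrane proteins, 15 rose and 3 fell in ZR-75-30, 11 and 3 in MDA-MB-175, and 3 and 4 in HCC1500 (10 and 5 without HG3), or 64.3%, 46.7%, 24.1% and 51.7% called. The shares of all genes called were 46%, 25.7%, 20.5% and 58.5%, the last above that of this list. LAPTM4B, a transmembrane protein of late endosomes, was called higher in each line and had the largest rise in HCC1500, from 2887 ± 72.2 to 6348 ± 1750, or to 5473 ± 51.8 without HG3. The channel MCOLN3 rose most in MDA-MB-175 (0.86 ± 0.29) and the phosphoinositide phosphatase TMEM55A in ZR-75-30 (1.15 ± 0.21). The largest falls were of the channel TPCN2 in MDA-MB-175 (-0.28 ± 0.06), the transporter MFSD8 in ZR-75-30 (-0.69 ± 0.09) and SIDT2 in HCC1500 (-0.74 ± 0.09).

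Of 19 other V-ATPase subunits, 9 rose and 3 fell in ZR-75-30, 5 and 4 in MDA-MB-175, and 4 and 1 in HCC1500 (9 and 6 without HG3), or 63.2%, 47.4%, 27.8% and 83.3% called. Of all genes 46%, 25.7%, 20.5% and 58.5% were called. ATP6V1C2 rose most in ZR-75-30 (1.44 ± 0.35) and MDA-MB-175 (0.65 ± 0.22) and ATP6V1G2 fell most (-1.15 ± 0.19 and -1.10 ± 0.30), with group means of 34.8 normalized reads or less for both. In HCC1500 ATP6V0C, the proteolipid ring subunit, went from 781 ± 30.5 to 1773 ± 1010, or to 1271 ± 124 without HG3, and ATP6V1B1 fell from 114 ± 7.66 to 68.4 ± 27.8.

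Of 18 regulators of the MiT/TFE factors, 10 rose and 2 fell in ZR-75-30, 7 and 1 in MDA-MB-175, and 3 and 0 in HCC1500 (8 and 4 without HG3), or 70.6%, 44.4%, 18.8% and 75.0% called. The shares of all genes called were 46%, 25.7%, 20.5% and 58.5%, and the HCC1500 share with all cultures is near the 20.5%. FLCN (folliculin), which controls the Rag GTPases that hold TFEB and TFE3 at the lysosome, rose in each line: from 67.3 ± 9.62 to 102 ± 6.97 in MDA-MB-175, to 168 ± 9.71 from 97.7 ± 6.79 in ZR-75-30, and to 409 ± 22.9 from 225 ± 3.36 in HCC1500. PPARGC1A, the coactivator PGC-1α, rose in ZR-75-30 (1.73 ± 0.14) and MDA-MB-175 (1.02 ± 0.17). TFEC, the fourth family member, went from 3.70 ± 1.28 to 18.8 ± 3.15 in MDA-MB-175 and was at or near 0 in the other lines. The Rag GTPase RRAGB fell in MDA-MB-175 (-0.34 ± 0.08) and RPTOR, the mTORC1 scaffold, in ZR-75-30 (-0.43 ± 0.05).

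Of 16 genes of delivery to the lysosome, 11 rose and 1 fell in ZR-75-30, 6 and 1 in MDA-MB-175, and 4 and 1 in HCC1500 (7 and 4 without HG3), or 75.0%, 43.8%, 31.2% and 68.8% called, against 46%, 25.7%, 20.5% and 58.5% of all genes. M6PR, a mannose 6-phosphate receptor, was called higher in each line, with log2 changes of 0.33 ± 0.04, 0.39 ± 0.04 and 0.70 ± 0.09. SORT1 (sortilin) fell in MDA-MB-175 (-0.24 ± 0.05), BLOC1S1 in ZR-75-30 (-0.13 ± 0.05) and VPS39 in HCC1500 (-0.26 ± 0.08), while GNPTG rose most in ZR-75-30 (0.59 ± 0.08). Over all 5 lists, 11 calls of genes named above, of NAAA, SCPEP1, MCOLN3, MFSD8, SIDT2, ATP6V1C2, ATP6V0C, ATP6V1B1, BLOC1S1 and VPS39 (in 2 lines), were each lost without any 1 of 4 to 7 cultures of the line (limma, adjusted p = 0.0501 to 0.146).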

How the data were processed

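RNA of 24 cultures was sequenced on an Illumina HiSeq. For the tumors the study's methods name Trimmomatic for trimming, TopHat for alignment, hg19 as the genome and Ensembl v70 as the annotation. They do not restate these steps for the cell cultures. The processing notes in the labels name hg38 and edgeR, and which build made the table was not settled. Gene positions and transcript lengths here are from GENCODE v44 in GRCh37 and promoters from RefSeq (GRCh38.p14). The deposited signal of each gene is whole reads divided by 1 factor per sample, and how that factor was made was not settled. The study's methods describe CPM with TMM factors from edgeR, but the deposited values sum to 5559394 to 7594840 in a sample. Within a tolerance of 0.01 all values were whole after division by the worth of 1 read. Samples were grouped by title into 6 groups of 4.

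Genes at 0.5 or more in at least 4 fitted samples were tested with limma 3.58.1 (R 4.3.3) on log2(value + 1), with a mean-variance trend, within each line, between lines at low glucose (12 cultures), and for the interaction (24 cultures). Calls were made at an adjusted p under 0.05. Values are means ± SD and log2 changes ± SE. Alternatives were pseudocounts of 0.1 and 5, no filter and a minimum of 5, CPM and median-of-ratios scaling, edgeR 4.0.16 and DESeq2 1.42.0 on the recovered reads, a replicate block, 1 fit on all samples, and each culture left out. Scripts were tested on simulated data.

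The members and lists were chosen with earlier results of these data known. Named genes were GPNMB and the 3 factors, the 3 largest rises and falls per line, members alike or opposite between lines, the 5 widest between lines, and the largest rise and fall per further list and line, of which some are not reported here. Counting does not state its use of strand, and 18 of the 38 members share exon bases with another gene (8 on the same strand), where reads cannot be told apart. The same-strand bases were 1765 for CD68, 1556 for CTSD, 756 for TPP1, 617 for HEXA, 253 for GLB1, 238 for CTSB, 175 for MCOLN1 and 72 for NPC2. Intervals cover counting error only.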

Additional observations from a re-analysis of the deposited data

Results flagged for a closer look

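Among the members named by rule, 82 groups of 4 cultures were checked for a culture far from the other 3 (Dixon's test at 95%), and 10 held one, where chance gives about 1 in 20. HCC1500 HG replicate 3 accounts for 6 of them: TFEB at 125, CTSL1 at 352, GLA at 690, NEU1 at 4950, MCOLN1 at 803 and GRN at 8452, each above the other HG cultures. The other 4 were TFE3 in MDA-MB-175 LG replicate 4 at 380 (432 to 434 in the others), CD68 in MDA-MB-175 HG replicate 3 at 3.12 (7.89 to 8.32), LIPA in ZR-75-30 HG replicate 1 at 485 (467 to 468) and MCOLN1 in MDA-MB-175 HG replicate 2 at 133 (114 to 117).

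For 10 named members the glucose response differed between the 3 lines by the limma F test of the interaction. The adjusted p was 0.00485 for MITF, 6.1e-04 for CTSL1, 0.0065 for CD68, 4.8e-06 for CTSS, 2.5e-06 for LIPA, 1.5e-04 for GLA, 1.9e-04 for NEU1, 0.018 for MCOLN1, 0.00114 for ASAH1 and 6.2e-04 for TPP1. The sample HCC1500 HG replicate 3 enters this fit, and all 10 passed without it as well. The causes were not tested.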

How the results depend on the processing

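In a fit on all 24 cultures, whose spread includes HG3, 10 members and 21 further lysosomal genes were called in MDA-MB-175, against 17 and 48, with 11.1% of all genes called. The HCC1500 counts depend most on the setting: against 9 members as deposited, 15 were called on CPM (26.5% of all genes), 18 by median of ratios (21.4%), 16 with edgeR (21.9%), 17 with DESeq2 (27.1%), 21 in the fit on all 24 cultures (32.2%) and 28 without HG3 (58.5%). Settings chosen after seeing the data gave, without HG3, 30 with edgeR (56.1%), 27 on CPM (63.5%), 30 by median of ratios (56.7%) and 25 with the replicate block (54.9%). Of the further genes 28 were called in HCC1500, and 49 with DESeq2, 55 in the fit on all 24 cultures, 79 without HG3, and without HG3 83 with edgeR, 81 on CPM, 81 by median of ratios and 79 with the block. Called alike in all 3 lines were 8 by median of ratios, 8 with edgeR and 8 with DESeq2, all of them higher, against 2.51%, 2.49% and 2.88% of all genes called higher in all 3. TFE3 in ZR-75-30 changed sign without LG replicate 4 (log2 change -0.01), with no call either way.

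With each culture left out in turn, members called ran from 14 to 20 in MDA-MB-175, 29 to 30 in ZR-75-30 and 7 to 28 in HCC1500. Further genes called ran from 40 to 54, 76 to 80 and 20 to 79. The share of all genes called ran from 21% to 29.9%, 43% to 45.7% and 12.4% to 58.5%. The members' median log2 change ran from 0.10 to 0.17, 0.42 to 0.50 and 0.14 to 0.42. Members called alike ran from 4 to 11, those differing at low glucose from 32 to 34, 34 to 35 and 34 to 34, and those with a line-dependent response from 22 to 30. Of 1709 values of single genes under an alternative, 1586 kept their direction and side of the threshold and 106 lost their call. No glucose call of a member had the other sign on CPM, by median of ratios or with edgeR. Between lines at low glucose, LAMP2, CTSH, ATP6V1A and SCARB2 were called as deposited and had the other sign on CPM.

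Cultures that share a replicate number did not deviate together (correlations of -0.04 to 0.11 over 13310 genes), so the number was taken as a name only. With the replicate block 18 members were called in MDA-MB-175 (26.6% of all genes), 31 in ZR-75-30 (47.6%) and 9 in HCC1500 (12%). Called alike were 5, between lines 34, 35 and 34, and in the interaction 22. The members' medians were 0.14, 0.45 and 0.32.

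The low reads of GPNMB, MITF, CD68 and CTSS in HCC1500 limit what their changes show: the log2 difference of GPNMB there ran from 1.95 to 4.45 over scalings and tools, against 3.30 to 3.79 in MDA-MB-175 and 2.55 to 2.80 in ZR-75-30.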
